A study of Bos taurus and Sus scrofa with 10 samples.

Results

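Most of the genes described here code for eukaryotic initiation factors. These proteins bring messenger RNA, the initiator tRNA and the ribosome together to start translation. Genes of eIF2 kinases, eIF4E-binding repressors and some other proteins carry EIF symbols too, and all are counted below as initiation factor genes. The genes were taken from a cow and a pig gene table as every gene whose symbol begins with EIF and a digit from 1 to 6, leaving out the Y chromosome and keeping, of repeated symbols, the row with the highest mean. The rule found 52 genes among the 20799 symbols or identifiers of the cow table and 42 among the 20502 of the pig table. Of the 54 symbols found in either species 40 were found in both, 12 in cow alone (EIF2B1, EIF2C2, EIF2S3, EIF3C, EIF3K, EIF3M, EIF4A1, EIF4A2, EIF4E1B, EIF4G1, EIF5 and EIF6) and 2 in pig alone (EIF4H and EIF5AL1). The study profiled RNA of Bos taurus (cow) and Sus scrofa (pig) at 5 stages, with 1 library of amplified total RNA for each. The earliest was the oocyte, followed by embryos of 2-4 cells, embryos of 8-16 cells, morulae and blastocysts. Breed, genotype, treatment, age, the number of oocytes or embryos in a library and whether embryos were made in vitro are not in the labels, so these 10 libraries stand for a species and a stage and nothing narrower.

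Translation of most messenger RNAs starts at the cap. The complex eIF4F (the cap-binding protein eIF4E, the helicase eIF4A and the scaffold eIF4G) recruits a small ribosomal subunit that carries eIF1, eIF1A, eIF3, eIF5 and the initiator tRNA held by eIF2. The subunit scans to the start codon, eIF2 is released, eIF5B helps the large subunit to join, and eIF2B recharges eIF2 with GTP for the next round. Kinases that phosphorylate the alpha subunit of eIF2 slow that recharging, and the 4E-binding proteins keep eIF4E away from eIF4G. The growing oocyte stores messenger RNA in a repressed form, and the embryo lives on this maternal stock until its own genome is transcribed, around the 8-16 cell stage in cow and earlier in pig by textbook accounts.

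Levels are in RPM, the reads of a gene in each 1000000 reads of the library total. They were not divided by gene length, so levels are compared between libraries of 1 species for the same gene and never between genes. A change is the later library minus the earlier one on the log2(RPM + 1) scale, which understates the change of low genes, for genes with at least 1 RPM in one of both libraries. Rose and fell are used only for changes of at least 2 on that scale, about 4-fold, and a change of at least 1 is given as a second count. Folds are ratios of RPM. With 1 library per stage there is no replicate error, no test of a difference between stages was possible, and the 95% Wilson and ratio intervals cover counting error only. Each series of 5 RPM values below is in stage order, from the oocyte to the blastocyst. Fewer copies per embryo and a larger total of other RNA give the same RPM, so they cannot be told apart here.

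The libraries held 3899291 to 14182046 reads in cow, the blastocyst being the deepest, and 3002751 to 4138616 in pig, and 3 reads, the limit that a count of 0 allows, correspond to between 0.212 and 0.999 RPM. Stage markers were listed for the oocyte and the blastocyst only, and each sum was highest in the library of that label. The summed level of 11 oocyte markers went from 6898 RPM in the cow oocyte to 0.282 RPM in the cow blastocyst, where 10 of them had 0 reads, and from 9087 to 38.3 RPM in pig. The sum of 12 blastocyst markers was 57.0 RPM in the cow oocyte and 3823 RPM in the cow blastocyst, beside 63.4 and 8286 RPM in the pig. KRT8 and KRT18 gave most of the blastocyst sums, 1490 and 1021 RPM in cow and 3629 and 2681 RPM in pig. Some of the 12 were higher at an earlier stage: AQP3, GATA6, NANOG, TEAD4 and TFAP2C in cow, and NANOG, TEAD4 and TFAP2C in pig. NANOG had 0 reads in the pig blastocyst. Markers of cumulus and granulosa cells, the somatic cells around an oocyte, summed over 14 genes to 321 RPM in the cow oocyte, the highest of the cow libraries, and to 74.4 RPM in the lowest, the 8-16 cell one. Over 12 genes in pig the sum was 167 RPM in the oocyte, 132 RPM at the lowest and 366 RPM at the highest, in the morula. In the oocytes the most abundant of them were STAR (157 RPM), VCAN (116 RPM) and FSHR (37.3 RPM) in cow and VCAN (101 RPM) and STAR (43.2 RPM) in pig. There AMH, COL1A1, DCN, FOXL2 and INHA were at 0 reads in cow, and COL1A1, INHA, LUM and TNFAIP6 in pig. The part of such cells in the results was not tested. The share of reads from mitochondrial genes went from 4.40% in the cow oocyte to 30.2% in the cow blastocyst and from 6.06% to 18.6% in pig. This share enters every RPM, and values under other scalings of the libraries are given at the end. In pig EIF1, EIF1AD, EIF2AK1, EIF2AK2, EIF2AK4, EIF2S1, EIF2S2, EIF3A, EIF3G, EIF3I, EIF4B, EIF4E, EIF4E2 and EIF5A overlap a gene with reads on the other strand, and their levels are uncertain to that extent.

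The initiation factor genes together took between 0.567% and 1.01% of cow reads and between 0.575% and 0.901% of pig reads. The share was highest in the 8-16 cell library in cow, at 1.01% (95% interval 1.004 to 1.021), and in the morula in pig, at 0.901% (95% interval 0.890 to 0.911). The interval of the pig morula overlapped that of the pig 2-4 cell library, at 0.896% (0.887 to 0.905). The share was lowest in the blastocyst in both species. In pig this rests on EIF5B, which gave 5397 of 8483 RPM in the oocyte and 6159 of 8956 RPM at the 2-4 cell stage. The pig blastocyst total was 5746 RPM, and without EIF5B it would not be the lowest. Nearly all of the genes were detected at every stage in cow, where 50 or 51 of 52 reached 1 RPM in each library. In pig 37, 35, 36, 40 and 40 of 42 did, and 5 genes had 0 reads in the oocyte library: EIF2AK1, EIF3F, EIF4EBP1, EIF4EBP3 and EIF5AL1. In cow 13 of 52 genes peaked in each of the 2-4 cell, 8-16 cell and morula libraries (25.0%, beside 26.3%, 15.6% and 19.3% of all genes), 11 in the blastocyst (21.2%, beside 27.5%) and 2 in the oocyte (3.85%, beside 11.3%). In pig 19 of the 41 detected genes peaked in the morula (46.3%, beside 24.5% of all genes) and 17 in the blastocyst (41.5%, beside 32.6%). At the first 3 stages 2, 2 and 1 peaked (4.88%, 4.88% and 2.44%, beside 18.6%, 10.5% and 13.9%). Counting intervals of the peak and the next highest library overlapped for 0, 4, 4, 4 and 4 of these cow genes, in stage order. The pig numbers were 0, 1, 1, 5 and 2.

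**Figure D1:**
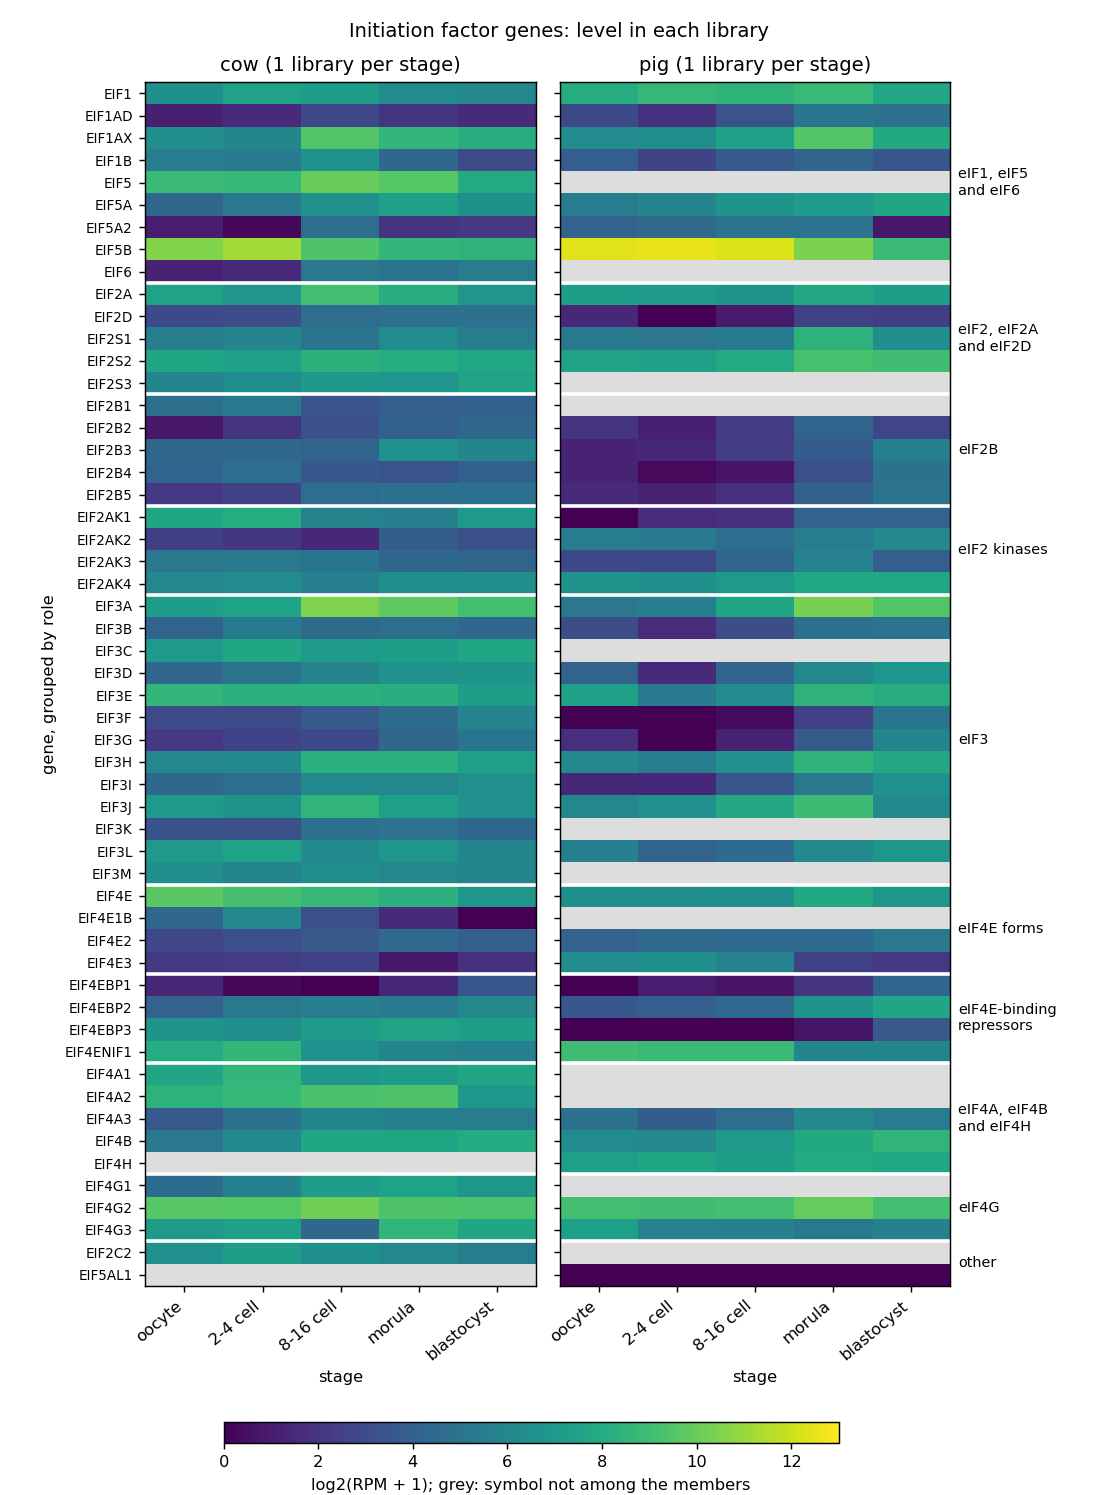
Level of every initiation factor gene as log2(RPM + 1), by stage (columns, 1 library each) and role (blocks of rows), in cow on the left and pig on the right. Along its own row EIF5B darkens toward the blastocyst, from 1506 to 346 RPM in cow and 5397 to 462 RPM in pig, while most eIF2B and eIF3 rows brighten in pig.

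In cow the first step was quiet. Between the cow oocyte and the 2-4 cell library 0 of 52 genes rose or fell, where 0.188% of all genes compared rose and 0.196% fell. The next step held the most calls, as it did for all genes compared. There 11 of 51 initiation factor genes changed, beside 27.9% of all genes. From the 2-4 to the 8-16 cell library 7 of 51 genes rose, beside 13.0% of all genes compared, and 4 fell, beside 14.9%. The 7 were EIF5A2, EIF1AX, EIF6, EIF3A, EIF2A, EIF3H and EIF2B5, and the 4 were EIF4G3, EIF4E1B, EIF2AK1 and EIF4ENIF1. The changes of EIF2AK1 and EIF4ENIF1, -2.21 and -2.06, became -1.99 and -1.84 without mitochondrial reads, -1.86 and -1.70 with median scaling, and -1.92 and -1.81 with quantile normalisation. From the 8-16 cell library to the morula 3 of 52 rose (background 6.92%), namely EIF4G3, EIF2B3 and EIF2AK2, and 2 fell (background 5.65%), namely EIF5A2 and EIF1B. A pseudocount of 5 left 3 of 52 changed at this step, with EIF2AK2 and EIF5A2 under the threshold. In the last step 0 rose (background 12.5%) and 1 fell, EIF4A2 (background 11.7%). The median change of the initiation factor genes over these steps was 0.34, 0.61, -0.07 and -0.21, beside 0.27, -0.44, 0.07 and -0.11 for all genes. Without mitochondrial reads the last of these medians turned to 0.06, beside 0.16 for all genes.

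Of the pig steps, the one into the morula held most calls. From the pig oocyte to the 2-4 cell library 0 of 38 rose (background 3.89%) and 2 fell (background 2.29%), EIF3D and EIF3E. The change of EIF3E, -2.06, became -1.90, -1.82 and -1.73 without mitochondrial reads, with median scaling and with quantile normalisation. At the next step 3 of 36 rose (background 4.82%), EIF3D, EIF3A and EIF3I, and 0 fell (background 0.725%). Here EIF3A and EIF3I, at 2.09 and 2.05, came to 1.82 and 1.86 with median scaling and to 1.92 and 1.80 with quantile normalisation. A pseudocount of 5 left 0 of 38 changed at the first step and 1 of 36 at this one, with EIF3D under the threshold at both. From the 8-16 cell library to the morula 10 of 40 rose (background 12.5%): EIF2S1, EIF3A, EIF3G, EIF2B4, EIF4EBP2, EIF2AK1, EIF2B5, EIF3E, EIF1AX and EIF3F. The 2 that fell at this step were EIF4E3 and EIF4ENIF1 (background 12.1%). Without the genes that overlap another row 6 of 24 changed at this step, beside 12 of 40 with them. Median scaling left EIF1AX (1.91), EIF3E (1.998) and EIF3F (1.91) under the threshold at this step. A pseudocount of 5 left 7 of 40 changed, with EIF2AK1, EIF2B4, EIF2B5, EIF3F and EIF3G under the threshold. From morula to blastocyst 4 of 41 rose (background 14.4%), EIF4EBP3, EIF3F, EIF3G and EIF4EBP1, and 3 fell (background 14.6%), EIF5A2, EIF3J and EIF2S1, the last of which changed by -1.93 with median scaling. Here a pseudocount of 5 left 2 of 41 changed, EIF5A2 and EIF3J, and none of the rises. The medians were -0.13, 0.52, 1.47 and -0.10, beside -0.14, 0.21, 0.18 and -0.11 for all genes. The first of these medians turned to 0.03 without mitochondrial reads and to 0.11 with median scaling, as that of all genes did, to 0.01 and 0.11.

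**Figure D2:**
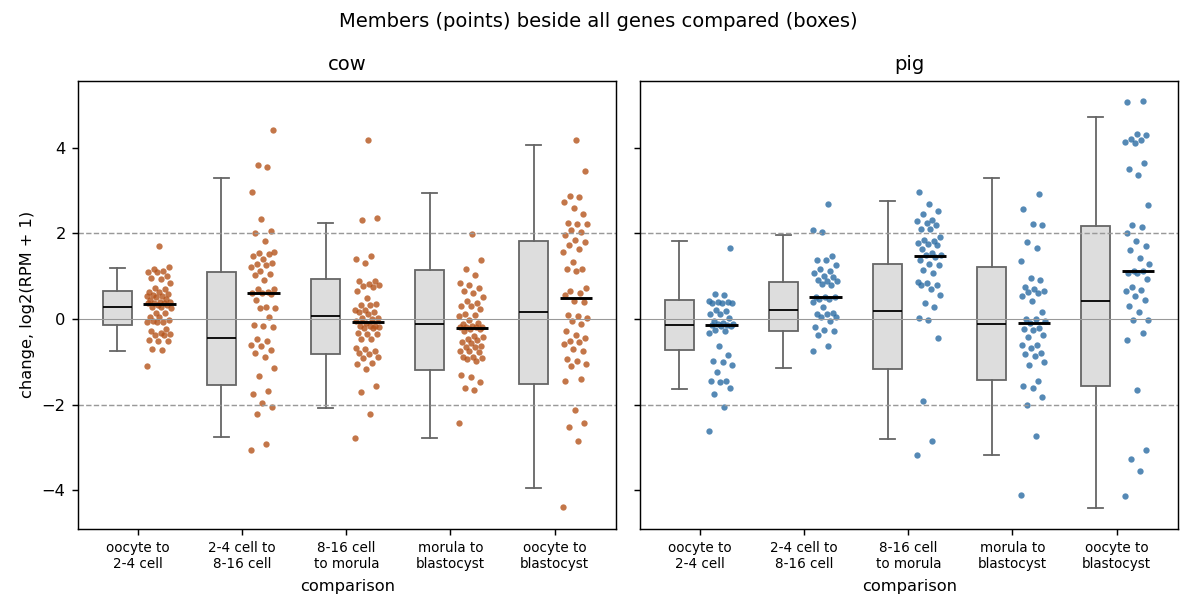
Change in log2(RPM + 1) over each step and from oocyte to blastocyst. Points are initiation factor genes with their median as a black bar, grey boxes are all genes compared (box: middle 50%, line: median, whiskers: percentiles 5 and 95), and dashed lines mark changes of 2 and -2. In pig the points sit highest above the box at the step from the 8-16 cell library to the morula, with medians of 1.47 and 0.18.

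Over the whole span from oocyte to blastocyst 12 of 52 cow genes rose and 5 fell, where 22.5% of all genes compared rose and 18.8% fell. In pig 15 of 41 rose and 4 fell, beside 27.2% and 20.0%. Without the genes that overlap another row 11 of 25 pig genes changed, beside 19 of 41 with them. At the lower threshold of 1, 22 cow genes were higher in the blastocyst (background 38.6%) and 9 lower (background 33.4%), and in pig 24 were higher (background 42.8%) and 5 lower (background 33.0%). The median change was 0.50 in cow, beside 0.17 for all genes, and 1.13 in pig, beside 0.43. Each of these genes was then placed at the step with its largest move in the same direction. Of the 22 cow genes that were higher by 1 or more, 14 (63.6%) made that move between the 2-4 and 8-16 cell libraries, beside 31.3% of all such genes. Of the 24 in pig, 15 (62.5%) made it between the 8-16 cell library and the morula, beside 35.9%.

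Of the 3 cap-binding genes found in both species EIF4E fell in cow, EIF4E3 fell in pig and EIF4E2 was higher by 1 or more in both. EIF4E, which codes for the main cap-binding protein, lay in the cow at chromosome 6, bases 27042237 to 27080766, plus strand (build UMD3.1), with 805, 566, 399.6, 313 and 112 RPM. Each cow library was below the one before it. The cow blastocyst was 7.21-fold lower (95% interval 6.80 to 7.65) than the oocyte, a change of -2.84. Pig EIF4E, at chromosome 8, bases 121409716 to 121466897, plus strand (build Sscrofa11.1), stood at 91.8, 85.1, 92.5, 240.4 and 114 RPM. The first 3 pig libraries and the blastocyst lay close together and the morula stood above them, at 240.4 RPM (95% interval 224 to 259). The pig change from oocyte to blastocyst was 0.32, beside the cow value above. The difference between the species was not tested.

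EIF4E1B codes for a form of eIF4E that is made mainly in oocytes and is known from maternal repression complexes. It was found in the cow table only, at chromosome 7, bases 39467952 to 39470752, plus strand, and pig EIF4E1B was not analysed here. The cow libraries held 99, 303, 44, 8 and 0 reads of it, or 20.1, 68.3, 8.10, 2.05 and 0 RPM. The level was highest at the 2-4 cell stage, 3.40-fold higher (95% interval 2.70 to 4.31) than in the oocyte, and fell by the 8-16 cell stage with a change of -2.93. The blastocyst, with 0 of 14182046 reads, was at least 94.9-fold lower than the oocyte when set at the limit of 3 reads in that library. Counted among the reads of the 4 cow eIF4E genes, EIF4E1B made up 2.41% in the oocyte (95% interval 1.98 to 2.92), 10.6% at the 2-4 cell stage (9.49 to 11.7), 1.91% at the 8-16 cell stage (1.43 to 2.55), 0.610% in the morula (0.310 to 1.20) and 0% in the blastocyst, where the interval reaches 0.210%. These are shares of reads, not divided by transcript length.

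EIF4E2 codes for 4EHP, a cap-binding protein that does not bind eIF4G and is known as a repressor. Cow EIF4E2 stood at 5.88, 8.11, 11.4, 20.8 and 14.5 RPM and pig EIF4E2 at 16.3, 21.3, 22.1, 22.3 and 35.7 RPM. Cow EIF4E2 changed by 1.17 over the whole span and pig EIF4E2 by 1.08, higher in both but short of the threshold of 2. Quantile normalisation brought these changes under 1, to 0.72 in cow and 0.80 in pig, and median scaling gave 0.95 in pig. EIF4E3, which codes for a less common cap-binding form, fell in pig and was low throughout in cow. Pig EIF4E3 (chromosome 13, bases 53083645 to 53152333, minus strand) stood at 78.2, 90.6, 53.4, 4.995 and 3.49 RPM, with the first 3 libraries high and the last 2 low. The pig blastocyst was 22.4-fold lower (95% interval 12.9 to 42.7) than the oocyte, a change of -4.14. In pig EIF4E3 took 42.0% of the reads of the 3 eIF4E genes in the oocyte (95% interval 38.2 to 45.9) and 46.0% at the 2-4 cell stage (42.6 to 49.4), and 1.87% in the morula (1.13 to 3.06). Cow EIF4E3 stood at 3.65, 3.83, 4.79, 0.769 and 2.61 RPM, a change of -0.37, and took between 0.229% and 2.03% of the reads of the cow eIF4E genes.

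The proteins that bind eIF4E split by kind. The gene of the storage protein fell in both species, and EIF4EBP1 and EIF4EBP2, for mTOR-controlled 4E-binding proteins, were higher in the blastocyst in both. EIF4ENIF1 codes for 4E-T, the eIF4E transporter, which carries eIF4E into nuclei and RNA storage bodies and holds messenger RNAs silent in oocytes. Cow EIF4ENIF1 (chromosome 17, bases 72293386 to 72332007, minus strand) stood at 266, 395, 94.3, 54.4 and 48.6 RPM and pig EIF4ENIF1 (chromosome 14, bases 48156841 to 48204338, minus strand) at 513, 433, 444, 60.9 and 60.9 RPM. In cow the first 2 libraries were high and in pig the first 3. The fall came between the 2-4 and 8-16 cell libraries in cow, with a change of -2.06, and between the 8-16 cell library and the morula in pig, with a change of -2.85. From oocyte to blastocyst EIF4ENIF1 was 5.47-fold lower (95% interval 4.99 to 6.01) in cow and 8.44-fold lower (95% interval 7.34 to 9.73) in pig.

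EIF4EBP1 and EIF4EBP2 code for the classical 4E-binding proteins, which release eIF4E when the kinase mTOR phosphorylates them. Cow EIF4EBP1 stood at 1.62, 0.225, 0, 1.80 and 10.2 RPM, which rests on 8, 1, 0, 7 and 144 reads. Pig EIF4EBP1 stood at 0, 0.967, 0.632, 2.997 and 17.4 RPM, from 0, 4, 2, 9 and 65 reads. It was near the limit of detection until the morula and highest in the blastocyst in both species. The blastocyst was 6.26-fold higher (95% interval 3.09 to 14.8) than the oocyte in cow, a change of 2.09 that becomes 1.59 with quantile normalisation and 1.19 with a pseudocount of 5. In pig it was at least 19.6-fold higher, against an oocyte library with 0 reads set at 3. EIF4EBP2 stood at 15.8, 36.9, 45.5, 39.0 and 67.8 RPM in cow and 10.7, 14.01, 20.5, 105 and 205 RPM in pig. The pig rise to the morula was 2.30, and the changes over the whole span were 2.03 in cow, 1.94 after thinning the libraries to 1 depth and 1.81 with a pseudocount of 5, and 4.14 in pig.

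EIF4EBP3, for the last of the 4E-binding proteins, cannot be compared between the tables. Pig EIF4EBP3 had 0 reads in the first 3 libraries and stood at 0.666 RPM in the morula and 11.5 RPM in the blastocyst, a change of 3.65 that becomes 1.72 with a pseudocount of 5. The cow row of that name stood at 105, 85.6, 139, 176 and 156 RPM and spanned 112909 bases, beside 1858 in pig. In RefSeq (assembly ARS-UCD2.0) cow EIF4EBP3 lies beside a separate gene, ANKHD1, for which no row of the cow table was used. The pig row ANKHD1 stood at 109, 69.1, 44.8, 251 and 258 RPM. The cow level therefore cannot be assigned to EIF4EBP3 alone.

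**Figure D3:**
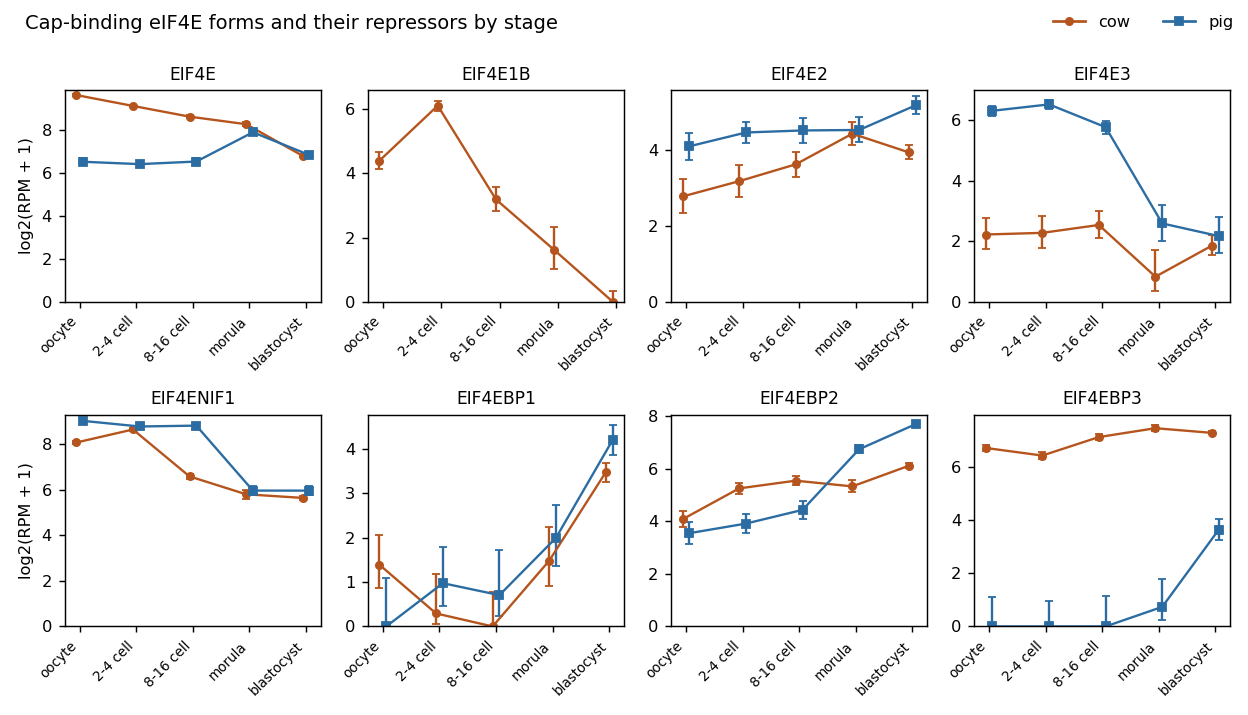
Levels of the eIF4E genes (top) and the genes of eIF4E-binding repressors (bottom) by stage, as log2(RPM + 1), in cow (circles) and pig (squares), with 95% Wilson intervals for counting error only. Cow EIF4E goes from 805 to 112 RPM and pig EIF4E3 from 78.2 to 3.49 RPM, while EIF4EBP1 and EIF4EBP2 end highest in the blastocyst.

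Of the factors of scanning and start codon choice, EIF5B fell in both species, and EIF1AX peaked at the 8-16 cell stage in cow and in the morula in pig. EIF5B codes for the GTPase that joins the ribosomal subunits. It stood at 1506, 2317, 692, 394 and 346 RPM in cow (chromosome 11, bases 4453057 to 4501844, plus strand) and at 5397, 6159, 5156, 1374 and 462 RPM in pig (chromosome 3, bases 54863623 to 54930849, minus strand). In cow the first 2 libraries were high, and in pig the first 3. The blastocyst was 4.35-fold lower (95% interval 4.19 to 4.51) than the oocyte in cow, a change of -2.12 that becomes -1.72 when mitochondrial reads are left out of the total and -1.49 with quantile normalisation. In pig it was 11.7-fold lower (95% interval 11.11 to 12.3), a change of -3.54.

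EIF1AX codes for eIF1A, which with eIF1 holds the small subunit open for scanning. Cow EIF1AX stood at 82.4, 58.6, 719, 383 and 276 RPM and pig EIF1AX at 77.3, 84.6, 169, 734 and 239 RPM. The 8-16 cell library was the highest in cow, 12.3-fold higher (95% interval 10.8 to 13.97) than the 2-4 cell library, and the morula was the highest in pig, 4.35-fold higher (95% interval 3.95 to 4.79) than the 8-16 cell library. EIF1, for the partner of eIF1A, stood at 91.9, 178, 156, 76.2 and 64.4 RPM in cow and 266, 399.9, 351, 427 and 211 RPM in pig. EIF1B, a close relative of EIF1, stood at 44.4, 42.1, 93.1, 19.2 and 6.91 RPM in cow and 13.9, 5.32, 11.7, 17.7 and 9.65 RPM in pig. In cow EIF1B fell, with a change of -2.52 from oocyte to blastocyst, beside -0.49 in pig, where the counting intervals of the first and last library overlapped. EIF1AD stood at 1.22, 2.03, 6.07, 2.82 and 1.90 RPM in cow and 6.22, 2.66, 9.16, 33.6 and 27.9 RPM in pig, where the change of 2.00 became 1.86, 1.46, 1.55 and 1.92 with median scaling, quantile normalisation, a pseudocount of 5 and thinning.

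EIF5, the activator of the GTPase of eIF2, was in the cow table only and stood at 468, 399, 991, 773 and 244 RPM, highest at the 8-16 cell stage. EIF6, which keeps the ribosomal subunits apart and works in making the large one, was likewise in cow only and rose from 1.42 RPM in the oocyte and 2.03 RPM at the 2-4 cell stage to 34.8, 29.7 and 42.9 RPM. This was the largest rise among the cow genes over the whole span, 30.2-fold higher (95% interval 14.6 to 75.4), a change of 4.18. EIF5A codes for a factor that carries the modified residue hypusine and acts mainly in elongation. It rose in both species, with 18.9, 34.7, 93.7, 174 and 92.1 RPM in cow and 44.7, 60.4, 105, 138 and 202 RPM in pig, changes of 2.23 and 2.15.

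Its relative EIF5A2 had changes of opposite sign. Cow EIF5A2 stood at 1.01, 0.225, 25.04, 2.82 and 3.53 RPM, from 5, 1, 136, 11 and 50 reads, so that 1 library, the 8-16 cell one, stood above the rest. Pig EIF5A2 stood at 16.3, 21.7, 30.3, 30.0 and 0.804 RPM, from 55, 90, 96, 90 and 3 reads, with the blastocyst low. Over the whole span the cow value was 1.17, or 0.71 with quantile normalisation, and the pig value -3.26. The pig blastocyst, on 3 reads, was 20.2-fold lower (95% interval 6.57 to 101) than the oocyte, and with a pseudocount of 5 its change was -1.87.

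eIF2 carries the initiator tRNA to the small subunit, and its alpha subunit is the target of the stress kinases. Of 5 cow and 4 pig genes for eIF2 subunits and the alternative tRNA carriers eIF2A and eIF2D, 0 rose or fell over the whole span (beside 22.5% and 18.8% of all genes in cow and 27.2% and 20.0% in pig), with medians of 0.08 and 1.03. In cow EIF2D (2.34) and EIF2S3 (2.02) passed 2 without mitochondrial reads, and EIF2S3 (2.08) with quantile normalisation. EIF2S1, for the alpha subunit that the kinases phosphorylate, stood at 46.5, 58.4, 31.1, 78.0 and 45.3 RPM in cow and 37.0, 34.6, 42.0, 335 and 82.3 RPM in pig. The pig morula stood far above its neighbours, 7.97-fold higher (95% interval 6.64 to 9.62) than the 8-16 cell library. EIF2S2, for the beta subunit, stood at 206, 160.2, 331, 263 and 218 RPM in cow and 193, 173, 249, 601 and 519 RPM in pig, and cow EIF2S3, for the gamma subunit, at 62.1, 80.4, 123, 108 and 194 RPM. EIF2A stood at 176, 108, 554, 269 and 108 RPM in cow, highest at the 8-16 cell stage, and at 155, 127, 105, 232 and 152 RPM in pig. EIF2D stood at 6.69, 7.43, 24.1, 27.2 and 28.9 RPM in cow, a change of 1.96, and at 1.78, 0, 0.948, 4.66 and 4.29 RPM in pig.

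eIF2B is the exchange factor that puts GTP on eIF2. Of its subunit genes 2 of 5 rose in cow (beside 22.5% of all genes) and 3 of 4 in pig (beside 27.2%), 0 fell in either (beside 18.8% and 20.0%), and the medians were 1.57 and 3.44, beside 0.17 and 0.43 for all genes. EIF2B5, for the catalytic epsilon subunit, rose in both: 3.45, 5.41, 24.7, 28.0 and 25.8 RPM in cow and 2.07, 1.45, 2.53, 15.7 and 30.6 RPM in pig. The step was between the 2-4 and 8-16 cell libraries in cow and between the 8-16 cell library and the morula in pig, with changes of 2.00 and 2.24. The cow change over the whole span was 2.59, and 1.87 with a pseudocount of 5. EIF2B2, for the beta subunit, stood at 0.811, 2.93, 8.47, 15.1 and 19.0 RPM in cow, a change of 3.47, and at 2.96, 1.21, 3.79, 17.0 and 5.63 RPM in pig, where the morula alone stood out and the change was 0.74. EIF2B3, for the gamma subunit, stood at 19.9, 19.4, 17.5, 94.4 and 61.1 RPM in cow and 1.48, 1.69, 4.11, 13.0 and 47.7 RPM in pig. The pig blastocyst was 32.2-fold higher (95% interval 13.6 to 101) than the oocyte, a value that rests on 5 oocyte reads. EIF2B4, for the delta subunit, stood at 17.0, 25.01, 10.7, 9.49 and 15.5 RPM in cow and 1.48, 0.242, 0.632, 7.99 and 27.3 RPM in pig, and EIF2B1, for the alpha subunit, was analysed in cow only, at 26.8, 40.8, 9.76, 14.1 and 15.5 RPM.

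Of the kinases that phosphorylate eIF2 alpha, EIF2AK1 codes for HRI, the heme-regulated kinase. Cow EIF2AK1 stood at 197, 261, 55.6, 49.8 and 131 RPM, with the 8-16 cell library and the morula low. Pig EIF2AK1 had 0 reads in the oocyte and stood at 0, 2.17, 2.53, 16.3 and 16.4 RPM, so that the blastocyst was at least 18.4-fold higher. EIF2AK2 codes for PKR, the kinase for double-stranded RNA, and stood at 4.46, 3.38, 1.84, 13.1 and 7.97 RPM in cow and 42.3, 38.9, 24.95, 44.0 and 68.4 RPM in pig. EIF2AK3, for the endoplasmic reticulum kinase PERK, stood at 34.9, 36.0, 32.2, 19.7 and 17.2 RPM in cow and 6.22, 6.28, 18.0, 53.0 and 14.2 RPM in pig, with its peak in the pig morula. EIF2AK4, for the amino acid sensor GCN2, stood at 63.1, 75.9, 49.2, 86.4 and 85.0 RPM in cow and 98.6, 89.9, 124, 223 and 217 RPM in pig. Over the whole span 0 of 4 kinase genes rose or fell in cow (beside 22.5% and 18.8% of all genes). In pig 1 of 4, EIF2AK1, rose and 0 fell (beside 27.2% and 20.0%).

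eIF3 is the large scaffold on the small subunit, and in pig its 10 analysed genes were higher by 1 or more at the step into the morula, or 9 of them with median scaling (EIF3J, 0.88). From oocyte to blastocyst 4 of 13 rose in cow (beside 22.5% of all genes) and 5 of 10 in pig (beside 27.2%), 0 fell (beside 18.8% and 20.0%), and the medians were 1.12 and 2.25, beside 0.17 and 0.43 for all genes. At the step from the pig 8-16 cell library to the morula 10 of 10 were higher by 1 or more (background 31.7%) and 0 lower (background 27.4%), with a median of 1.83. In cow the counts at the step to the 8-16 cell library were 5 of 13 higher (background 26.9%) and 1 lower (background 37.9%) by 1 or more, with a median of 0.70. The pig levels of EIF3A, EIF3G and EIF3I carry the uncertainty of overlapping genes given above.

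EIF3A codes for the largest core subunit. Cow EIF3A (chromosome 26, bases 39585658 to 39616179, minus strand) stood at 152, 185, 1450.2, 888 and 531 RPM, and pig EIF3A (chromosome 14, bases 128966336 to 129007234, minus strand) at 34.6, 46.2, 199.9, 1295 and 710.5 RPM. The first 2 cow libraries were low and the 8-16 cell library was 7.86-fold higher (95% interval 7.31 to 8.46) than the 2-4 cell one. In pig each library up to the morula was above the one before, and the morula was 6.48-fold higher (95% interval 5.95 to 7.06) than the 8-16 cell library. The change over the whole span was 1.80 in cow and 4.32 in pig, and the cow value passed 2 when mitochondrial reads were left out (2.20) and with quantile normalisation (2.31).

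EIF3D, EIF3F, EIF3G and EIF3I rose over the whole span in both species. EIF3D, for a subunit that can itself bind the cap of some messenger RNAs, stood at 18.3, 30.6, 58.5, 99.0 and 104 RPM in cow and 16.9, 1.93, 18.0, 66.3 and 112 RPM in pig. The pig 2-4 cell library was the low point, on 8 reads, beside 57 in the oocyte. EIF3F stood at 7.10, 6.98, 12.0, 23.1 and 53.1 RPM in cow and 0, 0, 0.316, 4.66 and 32.7 RPM in pig. Pig EIF3F had 0 reads in the oocyte and 2-4 cell libraries, and its blastocyst was at least 36.8-fold higher than the oocyte set at 3 reads. EIF3G, for a subunit with an RNA-binding domain, stood at 3.45, 5.18, 6.44, 18.7 and 31.7 RPM in cow and 2.37, 0, 1.26, 12.0 and 59.8 RPM in pig. It was the eIF3 gene with the largest cow change, 2.88, beside 4.17 in pig. EIF3I stood at 19.9, 25.9, 65.0, 62.8 and 95.9 RPM in cow and 1.78, 1.69, 10.1, 36.0 and 93.3 RPM in pig, and had the largest pig change, 5.09, beside 2.21 in cow.

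Other eIF3 genes went down or stayed within the threshold. EIF3E stood at 393, 305, 317, 297 and 149 RPM in cow and 175, 41.1, 76.4, 354 and 275 RPM in pig, the cow value being the lowest change of the group, -1.39. The pig change was 0.65, made of a fall at the 2-4 cell stage, -2.06, and a later rise, 2.20 at the morula. EIF3L, for a subunit outside the core, stood at 125, 182, 71.8, 114 and 59.2 RPM in cow and 47.4, 16.7, 22.4, 71.6 and 117 RPM in pig, and was lower by 1 or more in the cow blastocyst (-1.06, or -0.67 without mitochondrial reads) and higher in the pig one (1.29). EIF3J, for a loosely bound subunit, peaked and returned in both: 129, 101, 359.9, 159 and 94.4 RPM in cow and 63.7, 94.0, 225, 477 and 71.3 RPM in pig. EIF3H stood at 64.9, 71.4, 302, 306 and 165 RPM in cow and 69.3, 44.7, 95.7, 344 and 227 RPM in pig, and EIF3B at 17.4, 38.5, 21.9, 25.4 and 18.8 RPM in cow and 7.70, 2.17, 7.26, 26.6 and 30.0 RPM in pig. EIF3C, EIF3K and EIF3M, which were analysed in cow only, changed by 0.65, 1.12 and -0.55 from oocyte to blastocyst, with levels between 8.34 RPM (EIF3K, 2-4 cell) and 202 RPM (EIF3C, 2-4 cell).

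**Figure D4:**
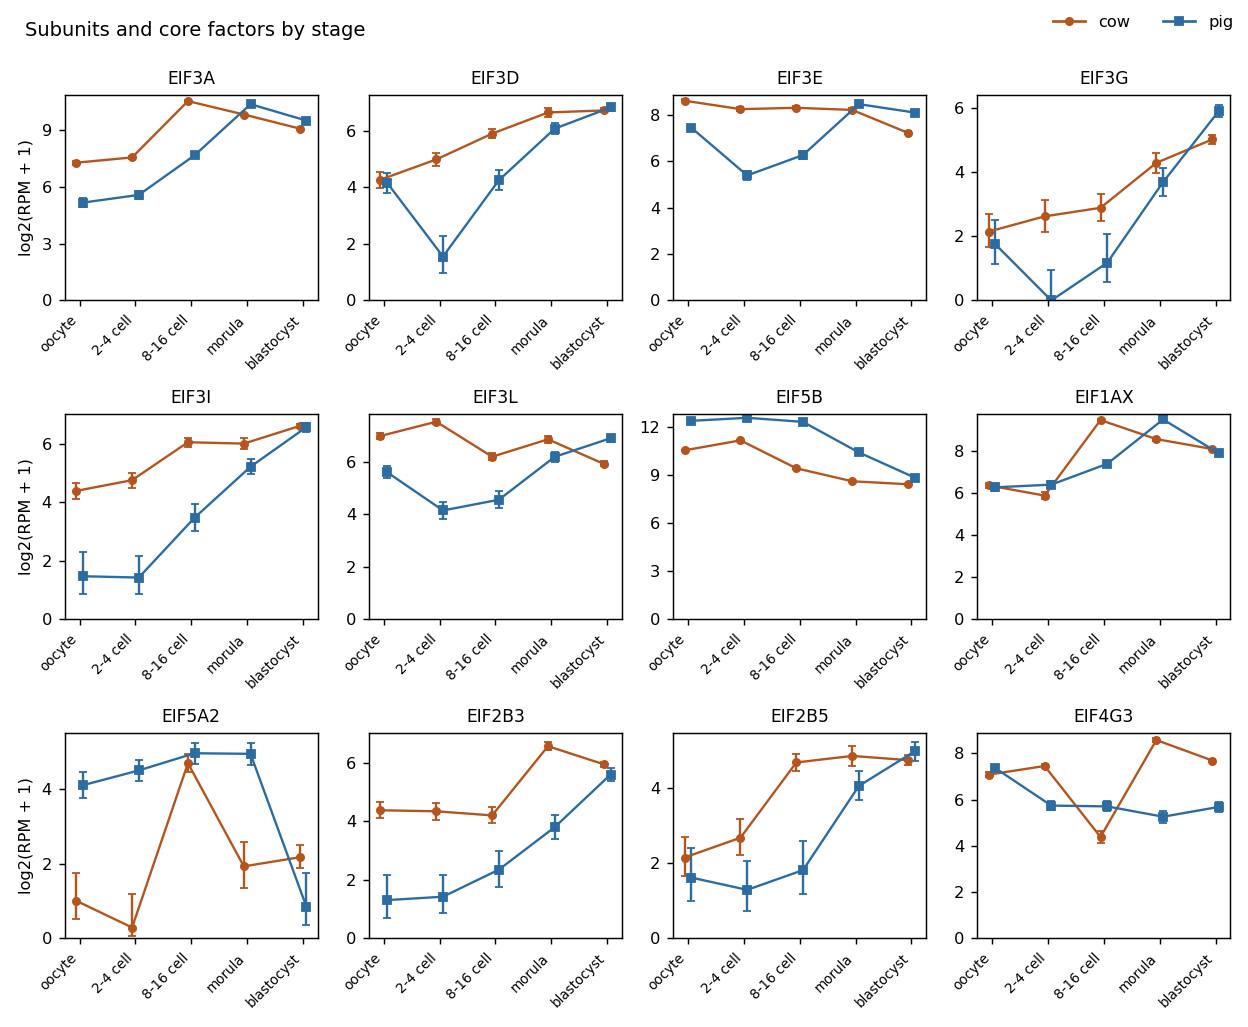
Levels of 6 eIF3 genes and 6 other factors by stage, as log2(RPM + 1), in cow (circles) and pig (squares), with 95% Wilson intervals for counting error only. EIF3A, EIF1AX and EIF2B5 climb at the 8-16 cell stage in cow and at the morula in pig, where EIF3A (2.09) and EIF1AX (0.99) were already higher at the 8-16 cell stage than before.

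The helicase eIF4A unwinds the messenger RNA leader with its cofactors eIF4B and eIF4H. EIF4B rose in both species, with 34.3, 70.3, 207, 207 and 255 RPM in cow and 77.6, 69.3, 129, 237 and 361 RPM in pig, changes of 2.86 and 2.21. The helicase genes EIF4A1 and EIF4A2 were analysed in cow only. EIF4A1 stood at 197, 383, 119.8, 149.5 and 199 RPM, and EIF4A2 at 336, 409, 616, 669.6 and 123 RPM. EIF4A2 was high up to the morula and fell in the blastocyst, which was 5.45-fold lower (95% interval 5.13 to 5.80) than the morula. EIF4A3, a related helicase of the exon junction complex, stood at 11.4, 27.9, 57.6, 51.5 and 43.7 RPM in cow and 29.0, 13.3, 24.0, 69.3 and 42.9 RPM in pig. Pig EIF4H stood at 159, 205, 157, 255 and 217 RPM, a change of 0.45.

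Of the eIF4G scaffolds EIF4G1, the main one of eIF4F, rose in cow, with 23.5, 51.6, 144, 183 and 116 RPM, and was analysed in cow only. EIF4G2 codes for DAP5, a relative that lacks the eIF4E-binding part, and stood at 789, 751, 1158, 693 and 647 RPM in cow and 563, 512, 555, 964 and 558 RPM in pig, with changes of -0.29 and -0.01. EIF4G3, the second full-length scaffold, stood at 134, 174, 19.9, 379 and 205 RPM in cow. The cow 8-16 cell library, on 108 reads, stood below all others, with a change of -3.07 into it and 4.19 out of it. Pig EIF4G3 stood at 163, 52.4, 51.2, 37.3 and 50.4 RPM, with the oocyte the highest and a change of -1.67 over the whole span.

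The last genes carry an EIF symbol without being initiation factors in the sense above, as the kinases and repressors do, or without reads. EIF2C2 is an older symbol of AGO2, an Argonaute protein of small RNA silencing, and RefSeq lists it as a synonym of cow AGO2. Cow EIF2C2 stood at 95.5, 149.6, 90.0, 64.4 and 44.4 RPM, and the pig row AGO2, which the rule does not take, at 73.1, 57.0, 72.0, 30.6 and 22.0 RPM. EIF5AL1 had 0 reads in each of the 5 pig libraries, which allows up to between 0.725 and 0.999 RPM per library at a limit of 3 reads.

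Set side by side, the 40 genes of both tables moved the same way from oocyte to blastocyst in 30 cases (75.0%), 23 higher and 7 lower in both, beside 68.5% of the 8566 symbols compared in both species. Among those symbols 3180 were higher and 2684 lower in both. At a change of 1 or more in both, 16 of 18 had the same sign (88.9%, beside 78.2% of 4616 symbols), and EIF3L and EIF5A2 had opposite signs. EIF2B5, EIF3D, EIF3F, EIF3G, EIF3I, EIF4B, EIF4EBP1, EIF4EBP2 and EIF5A rose in both, and EIF4ENIF1 and EIF5B fell in both. Among the 8566 symbols 996 rose and 750 fell in both. The cow step from the 2-4 to the 8-16 cell library and the pig step from the 8-16 cell library to the morula could be compared for 38 genes, of which 25 (65.8%) had the same sign, beside 59.5% of 8473 symbols. At 1 or more in both, 12 were higher in both (EIF1AD, EIF1AX, EIF2A, EIF2B2, EIF2B5, EIF2D, EIF2S2, EIF3A, EIF3H, EIF3I, EIF3J and EIF4A3), 2 were lower in both (EIF4ENIF1 and EIF5B) and 3 went opposite ways (EIF2AK1, EIF2B4 and EIF3L), so that 82.4% had the same sign, beside 68.6% of 3142 symbols. Among these symbols 944 were higher and 1212 lower in both. At the matched step from the 2-4 to the 8-16 cell library 24 of 35 genes (68.6%) had the same sign, beside 52.5% of 8195 symbols. At 1 or more in both, 7 of 7 were higher in both there, and 60.7% of 1284 symbols had the same sign, 622 higher and 157 lower in both.

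**Figure D5:**
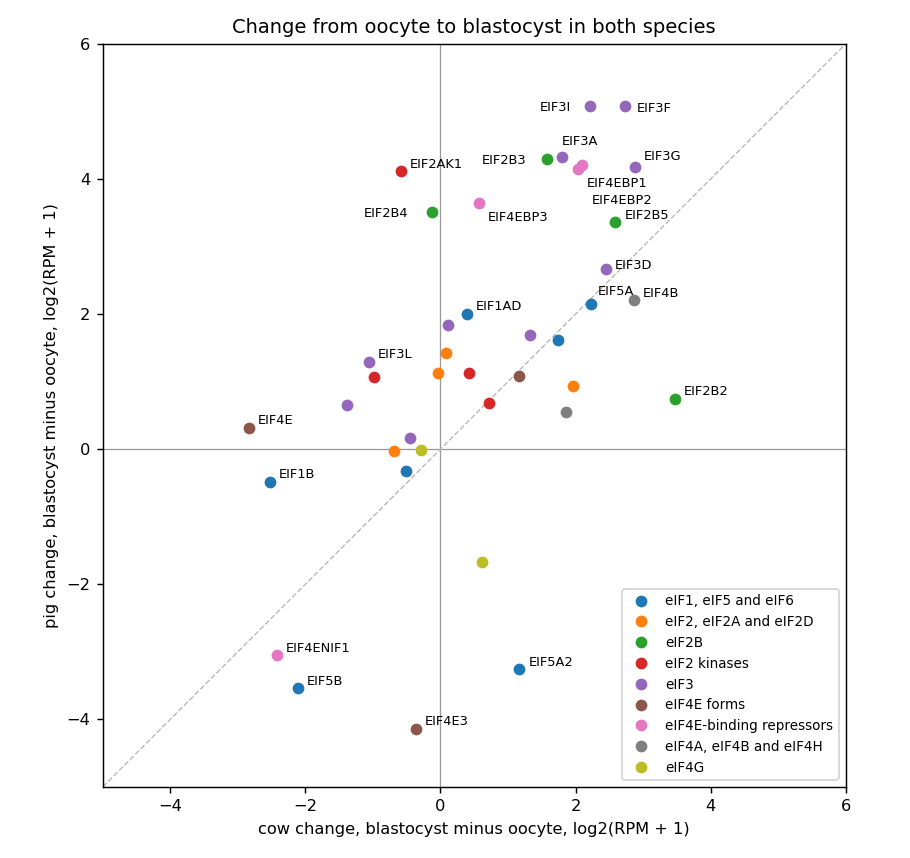
Change from oocyte to blastocyst on the log2(RPM + 1) scale in cow (x axis) and pig (y axis) for the 40 genes found in both species, coloured by role. Genes with a change of 2 or more in either species and EIF3L are named, and the dashed line marks equal change: 23 points lie in the upper right and 7 in the lower left, with EIF5A2 and EIF3L on opposite sides.

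Other genes of the pathway, from 4 lists of partners that do not carry an EIF symbol, gave a setting for these values. Of the elongation and termination factors 5 of 8 rose in cow and 6 of 8 in pig, and 0 fell, with medians of 2.92 and 3.84. For these lists too, 22.5% of all genes rose and 18.8% fell in cow, and 27.2% and 20.0% in pig. EEF1G, for the gamma subunit of the elongation factor eEF1, stood at 16.6, 24.1, 9.94, 65.1 and 248 RPM in cow and 1.18, 0, 2.84, 50.0 and 384 RPM in pig, and pig EEF1D, for the delta subunit, at 1.18, 0, 3.47, 19.6 and 148 RPM. The changes of EEF1G were 3.82 and 7.46, and that of pig EEF1D was 6.09. Of initiation partners such as poly(A)-binding proteins, 1 of 18 rose and 5 fell in cow, with a median of -0.75, and 1 of 14 rose and 4 fell in pig, with a median of -0.23. PAIP1, which couples poly(A)-binding protein to eIF4A and eIF3, stood at 1891, 1366, 481, 59.8 and 23.9 RPM in cow and 405, 361, 313, 66.9 and 46.9 RPM in pig. Its change was -6.25 in cow, the largest among the listed cow genes, and -3.08 in pig. PABPN1L, an oocyte poly(A)-binding protein, stood at 12.4, 13.97, 0.552, 0 and 0 RPM in cow, and pig CPEB1, which directs cytoplasmic polyadenylation of stored messenger RNAs, at 137, 76.1, 72.0, 3.33 and 0 RPM. Of genes that signal to initiation, the mTOR and eIF2 kinase pathways, 3 of 14 rose and 1 fell in cow, and 7 of 13 rose and 0 fell in pig.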

How the data were processed

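The deposited tables give 1 log2 value per gene and library, which the authors computed from reads: per the values, each is the log2 of RPM, the reads of a gene in each 1000000 reads of the library total, with 0 reads written as 0.9 of a read. Undoing that gave whole reads, within 0.01 of a read, for 99.94% to 99.99% of values, and 0.9 was read back as 0. Per the submitters' processing notes Trim Galore 0.6.4, HISAT2 2.1.0 and the builds UMD3.1 and Sscrofa11.1 were used. Counting tool, annotation, strand setting and treatment of duplicates are not given in the sources used here. Per the labels' protocols, RNA from a PicoPure kit was amplified with Ovation RNA-Seq V2 and 8 PCR cycles, so reads are not independent molecules. Where a gene overlaps another on the other strand (16 members in pig, 3 in cow) the reads of both cannot be told apart without the strand setting.

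From these, RPM, changes on the log2(RPM + 1) scale, ratios and 95% intervals were computed with Python 3.11.15, NumPy 2.4.6, pandas 2.3.3 and SciPy 1.17.1, and the script was checked on simulated data. Members, role groups, lists of other pathway genes and marker lists were chosen with earlier results of these data known. Any member could be named. All 5 values are given for the cap-binding and eIF4E-binding genes, for genes that changed by 2 or more from oocyte to blastocyst in both species, for the highest and lowest change of each role group, and for the 3 largest absolute changes among the other pathway genes of each species. Members outside these rules are described as well.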

Additional observations from a re-analysis of the deposited data

Results flagged for a closer look

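EIF5A2 and EIF3L were picked out because both had changes of 1 or more from oocyte to blastocyst with opposite signs in the 2 species; the difference was not tested, and each species has 1 library per stage. The pig change minus the cow change was -4.43 for EIF5A2 (-3.26 in pig, 1.17 in cow) and 2.35 for EIF3L (1.29 in pig, -1.06 in cow). The signs held under the other scalings, but the cow change fell short of 1 for EIF3L without mitochondrial reads (-0.67) and with quantile normalisation (-0.77), and for EIF5A2 with quantile normalisation (0.71).

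Reads were also present in rows that the rule leaves out. The second cow row named EIF1, on chromosome 3 and 661 bases long, stood at 1.22, 1.13, 2.21, 0.769 and 0.705 RPM in stage order, and its highest value was the 2.21 RPM of the 8-16 cell library, above the limit of 0.552 RPM that 3 reads set there. The cow row spelled eIF1AY, on chromosome X, had reads at the 8-16 cell stage, 4.60 RPM (95% Wilson interval 3.12 to 6.79), and in the morula, 1.54 RPM, and 0 in the other libraries. The pig row EIF1AY, on chromosome Y, had 0 reads in the first 3 libraries, 10.7 RPM in the morula and 22.0 RPM (17.7 to 27.3) in the blastocyst. Reads of these rows and of their near copies EIF1 and EIF1AX may be shared between rows, since how the counting treated such reads is not given in the sources used here.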

How the results depend on the processing

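No paired analysis was possible because each stage had 1 library and the labels give no replicate numbers, and for the same reason no replicate could be left out. Of 166 recomputed counts of changed members and whole-span medians 131 stayed within 1.5 times the count, or near the median. Among the whole-span medians 0 turned in direction, which a count cannot do. Of the medians of single steps 2 turned: cow morula to blastocyst to 0.062 without mitochondrial reads, and pig oocyte to 2-4 cell to 0.033 without them and 0.114 with median scaling; the causes of the shifts below were not tested. Against gene reads outside the mitochondrial genome the median change of all genes from oocyte to blastocyst moved by 0.42 in cow and 0.10 in pig, and quantile normalisation moved it by -0.19 and -0.41. No gene with a change of 1 or more turned direction under the scalings. From oocyte to blastocyst the smaller changes of EIF2B4, EIF2S1, EIF3B and EIF4G2 in cow, and EIF2A and EIF4G2 in pig, did.

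With reads outside the mitochondrial genome 2 members changed from morula to blastocyst in cow and 1 from oocyte to 2-4 cell in pig, and the medians over the whole span were 0.89 in cow and 1.25 in pig. In cow EIF1AX (2.13), EIF2D (2.34), EIF2S3 (2.02), EIF3A (2.20) and EIF4A3 (2.24) then passed 2, and EIF5B (-1.72) came short of the threshold. Median scaling gave 2 for cow morula to blastocyst, 1 and 1 for the first 2 pig steps, and a pig median of 0.99. Quantile normalisation gave medians of 0.68 in cow and 1.28 in pig, and 1 for pig 2-4 to 8-16 cell. A pseudocount of 0.5 gave 3 for cow morula to blastocyst and 5 for pig oocyte to 2-4 cell. A pseudocount of 5 gave 3 for cow 8-16 cell to morula and 0, 1, 7 and 2 for the 4 pig steps. A threshold of 1 gave 8 of 52, 29 of 51, 13 of 52 and 10 of 52 changed members for the cow steps. The whole cow span gave 31 of 52. All genes compared changed in 12.75%, 64.7%, 44.4%, 58.6% and 72.0% of cases. Pig counts were 10 of 38, 11 of 36, 29 of 40, 16 of 41 and 29 of 41. Among all pig genes compared 29.7%, 27.4%, 59.1%, 62.1% and 75.7% changed. Thinning to the shallowest library gave 2 for cow morula to blastocyst. Without members that overlap another row the cow median was 0.61, the pig counts were 1, 1 and 6 for the first 3 steps and 11 for the whole span, and 17 of 23 members had the same direction in both species.

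A minimum of 5 RPM, no minimum and summed repeated rows moved none of these counts past 1.5 times. Neither did 2 alternatives added after seeing the data: 0 reads taken as 0.9 of a read, and leaving out EIF2C2 and the cow row EIF4EBP3. Depth limits the genes with few reads, and the stage differences carry no replicate error.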

Other observations

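The mitochondrion starts translation with its own factors. They were chosen for description after their values were seen. MTIF2, which places the initiator tRNA on the mitochondrial ribosome, stood in stage order at 78.7, 64.0, 13.99, 26.7 and 15.9 RPM in cow and 14.5, 10.6, 34.4, 324 and 601 RPM in pig, changes from oocyte to blastocyst of -2.23 and 5.28. MTIF3, which works before it on the small subunit, stood at 9.13, 11.9, 1.47, 1.80 and 10.9 RPM in cow and 305, 161, 145, 43.6 and 47.7 RPM in pig, changes of 0.23 and -2.65. The difference between the species was not tested.

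Of genes that act on the eIF2 kinase pathway, 3 were likewise chosen after their values were seen. PPP1R15A, which brings a phosphatase to eIF2 alpha, stood at 19.5, 33.1, 9.39, 2.31 and 2.19 RPM in cow and 0, 0.483, 7.26, 5.99 and 7.78 RPM in pig. DDIT3, a transcription factor of the same stress response, stood at 36.3, 62.6, 75.8, 20.8 and 12.3 RPM in cow and 3.85, 2.90, 9.16, 11.7 and 53.6 RPM in pig, changes of -1.48 and 3.49. ATF4, whose messenger RNA is translated when eIF2 alpha is phosphorylated, rose in both, with changes of 2.59 and 3.15.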
